A study of Mus musculus with 18 samples.

Results

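Activator protein 1 (AP-1) genes and related basic leucine zipper (bZIP) genes were followed in mouse CD8+ T cells before and during activation through the T cell receptor. The 9 genes were Fos, Fosb, Fosl1, Fosl2, Jun, Junb, Jund, Maff and Atf3, found among the 55487 genes of the count table by the Ensembl identifiers of their GENCODE M21 symbols. All 9 had enough counts to be tested, with 13150 genes tested in all. Cells came from spleens and lymph nodes of wild-type C57BL/6J mice and were sorted by the costimulatory receptor 41BB (CD137) into 41BB+ cells, which the study calls Tpam, and conventional 41BB- cells. RNA was taken right after the sort (0 h, no activation) or once cells had been cultured for 24 h or 72 h with CD3/CD28 Dynabeads, beads whose antibodies trigger the T cell receptor and the costimulatory receptor CD28. Each of the 6 groups had 3 libraries, described as biological triplicates and numbered 1 to 3 by experiment, and the sources used here do not say whether animals were pooled.

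AP-1 is a family of dimers that bind DNA through paired leucine zippers. Jun proteins pair with each other or with Fos proteins, whereas Fos proteins need a Jun partner, and the Fos to Jun dimer binds the sequence TGACTCA. In T cells, receptor and CD28 signals reach AP-1 through the ERK and JNK kinases, and AP-1 acts with NFAT on genes such as that of interleukin-2. Fos, Jun and their relatives are classical immediate early genes, whose transcripts appear within minutes of many stimuli, cell handling included, and decay fast.

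Libraries held 3085241 to 4239795 counts. Levels are given as CPM, the count divided by the total of the library and scaled to 1000000, differences as log2 fold changes ± SE from edgeR's quasi-likelihood test, and calls at an adjusted p under 0.05 over all genes tested. The test gives no SE of its own, so the SE here is the absolute log2 fold change divided by the square root of the test's F. In bulk RNA, a change in the number of cells with a transcript cannot be told apart from a change per cell. The 6 CD8 T cell markers summed to 1996 to 2199 CPM in 41BB+ libraries against 2837 to 3214 CPM in 41BB- libraries at 0 h, and none was at 0. Of other cell types, myeloid markers stood apart in experiment 2 at 24 h. Their sum was 74.2 CPM in 41BB+ replicate 2, with Lyz2 at 45.9 CPM, S100a9 at 10.3 CPM and Itgam at 0, and 10.6 CPM in 41BB- replicate 2, against 0 to 0.319 CPM in the other 24 h libraries. Summed stromal and endothelial markers at 0 h, 105.6 to 137.3 CPM in 41BB+ libraries against 212.6 to 261.8 CPM in 41BB- libraries, were nearly all Pecam1 (100.7 to 130.8 and 205.8 to 260.6 CPM), which T cells also express. The other lists (CD4 helper, Foxp3, B, plasma, NK, gamma-delta T, dendritic, erythroid and platelet) summed to at most 18.3 CPM at 0 h and 14.3 CPM at 24 h. At 72 h the 3 CD4 helper genes summed to 20.5 to 28.5 CPM in 41BB+ libraries against 39.8 to 50.6 CPM in 41BB- libraries, and Foxp3, a regulatory T cell marker, went the opposite way, at 9.70 to 25.3 CPM against 3.49 to 7.90 CPM. Pecam1 was then also higher in 41BB+ libraries, at 207.4 to 280.9 CPM against 105.7 to 121.4 CPM. The part of these markers in the results was not tested.

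**Figure D1:**
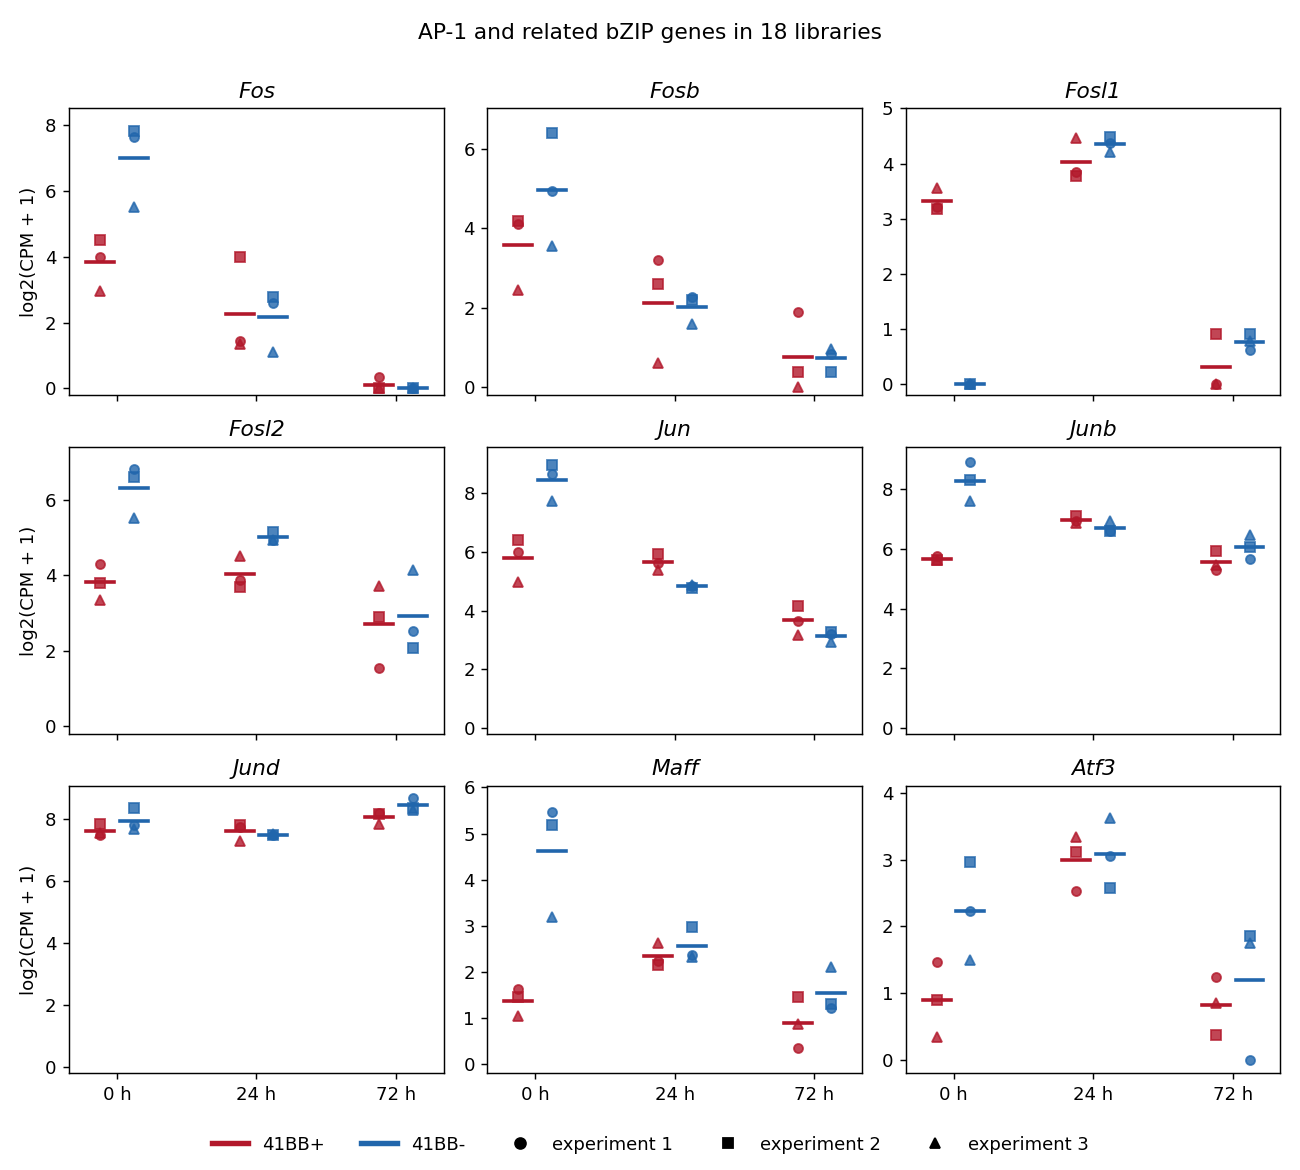
Level of each of the 9 genes in every library, with hours of activation on the x axis and log2(CPM + 1) on the y axis, where colour gives the population, marker shape the experiment and a line the group mean. At 0 h Jun, Junb, Fos, Fosl2, Maff and Atf3 sit higher in all 3 41BB- libraries than in any 41BB+ library, Fosl1 is at 0 in the 41BB- libraries, and at 72 h Jund is the highest of the 9 in every library.

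Before activation, 6 of the 9 genes had less RNA in 41BB+ than in 41BB- cells, Fosl1 had more, and Fosb and Jund were not called. Jun, Junb, Fos, Fosl2, Maff and Atf3 were lower in 41BB+ cells, by factors of 4.25 to 17.9, and Fosl1 was higher. Of all tested genes, 17.3% were called lower and 22.2% higher (39.5% in either direction). The median log2 fold change was -2.65 over the 9 genes and 0.01 over all genes tested. The 3 libraries of one population lay apart from the 3 of the other for 7 of the 9 genes and for 49.9% of all tested genes.

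Among the Jun family, Jun (chromosome 4, 95049034 to 95052222 on GRCm38, minus strand) encodes c-Jun, the JNK substrate that gave the family its name. Jun stood at 63.0, 82.7 and 30.5 CPM in 41BB+ libraries 1 to 3 and at 400.0, 496.9 and 213.8 CPM in 41BB- libraries 1 to 3. The lowest 41BB- library was above the highest 41BB+ library (log2 fold change -2.67 ± 0.34, adjusted p = 1.42e-05). Junb (chromosome 8, 84974484 to 84978718, minus strand), whose product often restrains c-Jun, was at 53.0, 48.4 and 48.7 CPM in 41BB+ libraries against 483.7, 313.1 and 193.6 CPM in 41BB- libraries. The groups were again apart (-2.73 ± 0.28, adjusted p = 7.05e-07). Jund (chromosome 8, 70698949 to 70700616, plus strand) encodes the Jun protein that many resting cells hold at a steady level. Its values of 177, 228 and 187 CPM in 41BB+ libraries against 223, 328 and 204 CPM in 41BB- libraries overlapped, and it was not called (-0.36 ± 0.16, adjusted p = 0.0804), though it was without 41BB+ replicate 2, 41BB- replicate 1 or 41BB- replicate 3 (adjusted p = 0.0248 to 0.048). The overlapping opposite-strand genes Junos (Jun), Prdx2 (Junb) and Gm11175 (Jund) share bases with these genes, and no source used here gives the strand setting of the counting, so their reads cannot be told apart in the overlap. Prdx2 was at 39.1 ± 2.49 CPM in 41BB+ libraries against 28.3 ± 4.29 CPM in 41BB- cells at 0 h (SD, n = 3).

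The Jun promoter is known to carry a variant AP-1 site through which c-Jun and ATF proteins act on their own gene. The Jun window is shown here with Maff start 3, which held the same site, and Maff start 2, which held a cyclic AMP response element. The windows run from 250 bases before to 50 bases after a RefSeq transcript start (GRCm38.p6), 5′ to 3′ on the gene's strand, with the matched site in capitals. Positions count from the start base as 0.
Jun, chr4:95052173-95052472, minus strand: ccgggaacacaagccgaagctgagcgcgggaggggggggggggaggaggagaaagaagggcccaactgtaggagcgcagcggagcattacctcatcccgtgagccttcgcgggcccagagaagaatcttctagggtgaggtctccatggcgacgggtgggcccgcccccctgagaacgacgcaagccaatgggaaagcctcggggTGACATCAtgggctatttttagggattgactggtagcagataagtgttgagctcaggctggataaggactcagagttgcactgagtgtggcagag
Maff start 2, chr15:79347270-79347569, plus strand: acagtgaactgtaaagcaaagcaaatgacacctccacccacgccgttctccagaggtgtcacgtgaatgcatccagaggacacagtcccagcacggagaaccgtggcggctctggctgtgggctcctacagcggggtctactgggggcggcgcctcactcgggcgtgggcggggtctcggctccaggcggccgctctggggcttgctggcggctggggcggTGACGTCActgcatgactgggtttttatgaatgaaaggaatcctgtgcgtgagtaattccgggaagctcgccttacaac
Maff start 3, chr15:79348152-79348451, plus strand: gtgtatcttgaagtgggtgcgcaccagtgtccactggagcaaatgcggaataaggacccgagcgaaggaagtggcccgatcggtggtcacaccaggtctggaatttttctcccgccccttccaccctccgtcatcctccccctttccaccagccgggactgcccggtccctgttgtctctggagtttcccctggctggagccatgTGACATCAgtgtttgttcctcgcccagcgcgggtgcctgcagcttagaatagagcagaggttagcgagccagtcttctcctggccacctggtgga
TGACATCA lay at -45 to -38 in Jun and at -45 to -38 in Maff start 3, and the palindrome TGACGTCA, the cyclic AMP response element, at -29 to -22 in Maff start 2. Windows were at hand for 8 of the 9 genes, 10 windows in all, and were searched on both strands for TGACTCA, TGACGTCA, TGACATCA and the CArG box, with no other match. Sites outside the windows were not searched. The Jund window (70697489 to 70697788) ended before the start of the Jund gene counted here (70698949). Among 32851 windows of all genes, TGACTCA was held by 5.2%, TGACGTCA by 1.79%, TGACATCA by 3.62% and the CArG box by 1.63%. A match describes letters only and says nothing of binding in these cells.

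Among the Fos family, Fos (chromosome 12, 85473890 to 85477273, plus strand), the prototype immediate early gene, was at 15.02, 22.03 and 6.84 CPM in 41BB+ libraries against 198, 226 and 44.9 CPM in 41BB- libraries at 0 h. All 41BB- libraries were above all 41BB+ libraries (-3.43 ± 0.79, adjusted p = 0.00524). Fosl2 (chromosome 5, 32135801 to 32157842, plus strand), which encodes Fra-2, was at 18.6, 12.9 and 9.21 CPM in 41BB+ libraries against 112.5, 95.6 and 44.6 CPM in 41BB- libraries (-2.65 ± 0.55, adjusted p = 0.00129). Fosb (chromosome 7, 19302696 to 19310051, minus strand), which encodes FosB, was at 16.2, 17.2 and 4.47 CPM in 41BB+ libraries against 29.8, 83.9 and 10.9 CPM in 41BB- libraries. These ranges overlapped and Fosb was not called (-1.73 ± 0.79, adjusted p = 0.102). Without 41BB- replicate 2, its highest library, the value was -0.72 (adjusted p = 0.536), and without 41BB- replicate 3 it was -2.20 and called (adjusted p = 0.0311).

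Fosl1 (chromosome 19, 5447547 to 5455946, plus strand), which encodes Fra-1, a Fos protein that lacks the strong activation domain of c-Fos, went the other way. It was at 8.25, 8.01 and 10.8 CPM in 41BB+ libraries, 97 counts in all, and had 0 counts in each of the 3 41BB- libraries. Against a floor of 3 counts over the group, Fosl1 was at least 29.1-fold higher in 41BB+ cells (adjusted p = 1.05e-07). Ccdc85b, which overlaps Fosl1 on the opposite strand, was at 16.3 ± 3.80 CPM in 41BB+ libraries against 16.1 ± 5.66 CPM in 41BB- cells (SD, n = 3).

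Maff (chromosome 15, 79346621 to 79359076, plus strand) encodes a small Maf protein, which has a bZIP domain but no activation domain. It was at 2.06, 1.72 and 1.05 CPM in 41BB+ libraries against 43.4, 35.3 and 8.14 CPM in 41BB- libraries, the largest of the 6 called differences in which 41BB- cells were higher (-4.16 ± 0.56, adjusted p = 7.39e-07). Atf3 (chromosome 1, 191170296 to 191218039, minus strand), a stress-induced factor of the ATF/CREB family, was low in both populations, at 1.77, 0.858 and 0.263 CPM in 41BB+ libraries against 3.72, 6.81 and 1.81 CPM in 41BB- libraries. All 3 41BB- values were above all 3 41BB+ values, though by little (-2.09 ± 0.79, adjusted p = 0.037). Leaving out 1 library ended the Atf3 call in 4 cases, namely 41BB+ replicates 2 (adjusted p = 0.0899) and 3 (0.141) and 41BB- replicates 1 (0.0544) and 2 (0.196), and without 41BB+ replicate 1 its value was -2.82.

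**Figure D2:**
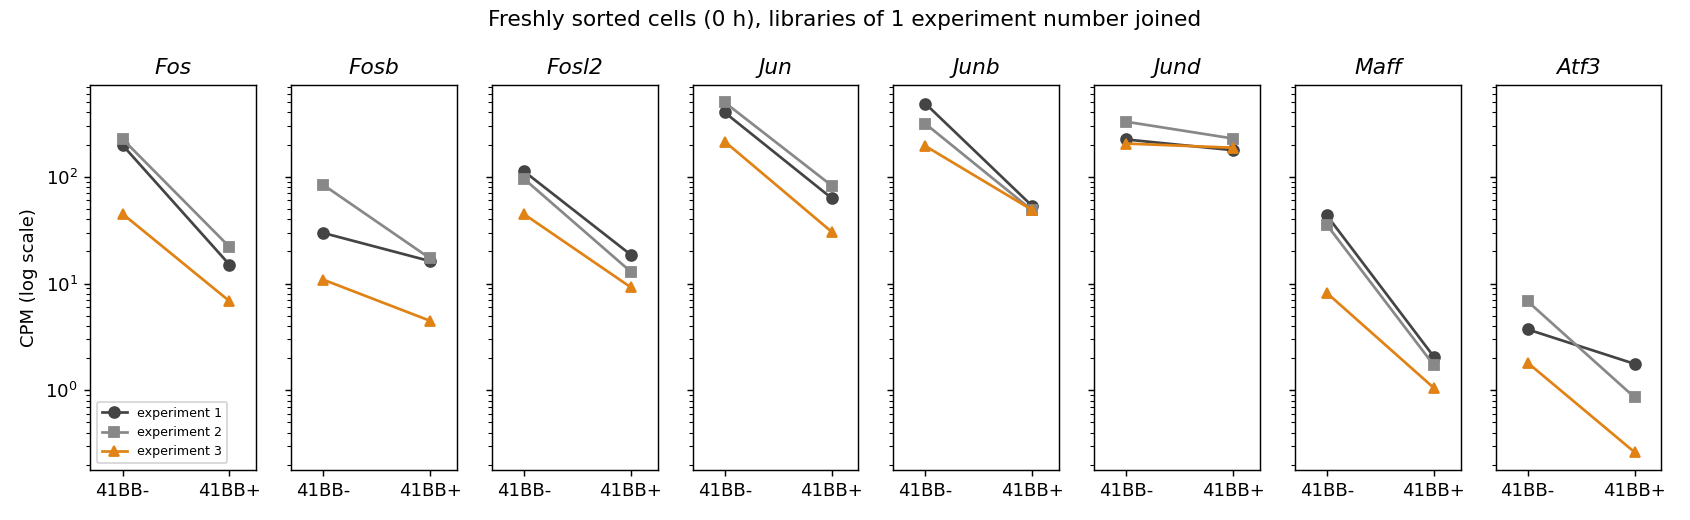
Level at 0 h in CPM (log scale on the y axis) of the 8 genes other than Fosl1, which had 0 counts in 41BB- libraries, with a line joining the 41BB- and the 41BB+ library of each of the 3 experiments. All 8 genes are higher in the 41BB- library of every experiment, and experiment 3 is the lowest for Fos, Fosb and Jun in both populations.

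Experiment 3 was the lowest of the 3 in both populations for Fos, Fosb, Fosl2, Jun, Maff and Atf3. The difference between the populations was nevertheless found in each experiment. Fos was 13.2-fold, 10.2-fold and 6.57-fold higher in the 41BB- than in the 41BB+ library of experiments 1 to 3, and Jun 6.35-fold, 6.01-fold and 7.01-fold. Junb was 9.12-fold, 6.48-fold and 3.98-fold higher, and Maff 21.04-fold, 20.6-fold and 7.74-fold. Mitochondrial genes took 11.4% of counts in 41BB- library 3 and 9.05% and 8.74% in the other two, against 8.70% to 8.75% in 41BB+ libraries, and its part in the result was not tested. Without experiment 3 at 0 h, 6 of the 9 genes were called, and Atf3 was the call that was lost (-2.01, adjusted p = 0.0832). With the experiment number as a block within each time, all 9 were called, Fosb at -1.53 (adjusted p = 0.00197) and Jund at -0.34 (adjusted p = 0.0107). The shares of all tested genes in these Results are from the fit of all 18 libraries with no block. They cannot be set beside the count without experiment 3 or the count with the block.

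Other genes around AP-1 were read at 0 h as lists. Of 35 tested immediate early and handling-responsive genes other than the 9, 20 were lower and 7 higher in 41BB+ cells, with a median log2 fold change of -0.74, beside 17.3% of all tested genes lower and 22.2% higher. Btg1, an antiproliferative gene, was at 249 ± 11.7 against 933 ± 104 CPM (log2 fold change -1.92, adjusted p = 2.73e-11) and Tsc22d3, which encodes the glucocorticoid-induced protein GILZ, at 23.6 ± 4.67 against 140 ± 16.5 CPM (-2.58, adjusted p = 5.68e-11). Among the 7 higher were the chaperone genes Hsp90aa1 (2.18, adjusted p = 1.49e-14) and Hspa8 (1.40, adjusted p = 7.17e-13). These genes are named for the smallest adjusted p, and other genes of the list went both ways by mean CPM. Egr2 (30.5 against 12.3 CPM) and Nr4a3 (99.4 against 53.7 CPM) were higher in 41BB+ cells. Dusp1 (15.5 against 104.5 CPM) and Ier2 (39.5 against 100.9 CPM) were lower. Of 21 other bZIP genes 6 were lower and 4 higher, 10 called in all beside 39.5% of all tested genes, with a median of -0.004. Crem, a CREB family gene (-2.06, adjusted p = 5.71e-06), Bach1, a heme-regulated repressor gene (-1.28, adjusted p = 3.47e-05), and Nfe2l2, which encodes the oxidative stress factor NRF2 (-0.88, adjusted p = 6.13e-05), were lower. The small Maf gene Mafg was higher (1.51, adjusted p = 0.000224), opposite in sign to Maff.

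Of 28 tested genes that carry T cell receptor signals to AP-1, 8 were lower and 6 higher in 41BB+ cells at 0 h, with a median of -0.19. The share higher was close to the 22.2% of all tested genes, and 17.3% of those were lower. Prkcq, which encodes protein kinase C theta, was at 322 ± 18.3 against 752 ± 55.2 CPM (-1.23, adjusted p = 4.83e-10). Malt1, which encodes a paracaspase on the route to NF-kB (-1.45, adjusted p = 3.61e-09), was also lower, and the ternary complex factor gene Elk3 was higher (1.08, adjusted p = 3.35e-06). Known AP-1 target genes of T cells were mostly higher in 41BB+ cells, where 6 of the 9 AP-1 genes were lower and Fosl1 was higher. Of the 21 listed, 15 were tested, and of these 9 were higher and 1 lower in 41BB+ cells. The median was 2.79, or 1.83 with genes at 0 in 1 or both groups set to their bound. Lif was among those higher at only 0.916 against 0.101 CPM. The chemokine gene Xcl1 was at 145 ± 19.9 against 2.91 ± 1.24 CPM (5.61, adjusted p = 5.99e-08) and Il2ra, the gene of the interleukin-2 receptor alpha chain, at 56.4 ± 14.6 against 3.34 ± 0.766 CPM (4.05, adjusted p = 5.12e-08). The chemokine gene Ccl4 (3.29, adjusted p = 1.23e-08) and the cytokine gene Tnf (1.83, adjusted p = 7.43e-07) were higher, and the lower one was the early activation marker gene Cd69 (-1.13, adjusted p = 5.77e-05). Cd69 and Nr4a1 stood in both the target list and the immediate early list.

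**Figure D3:**
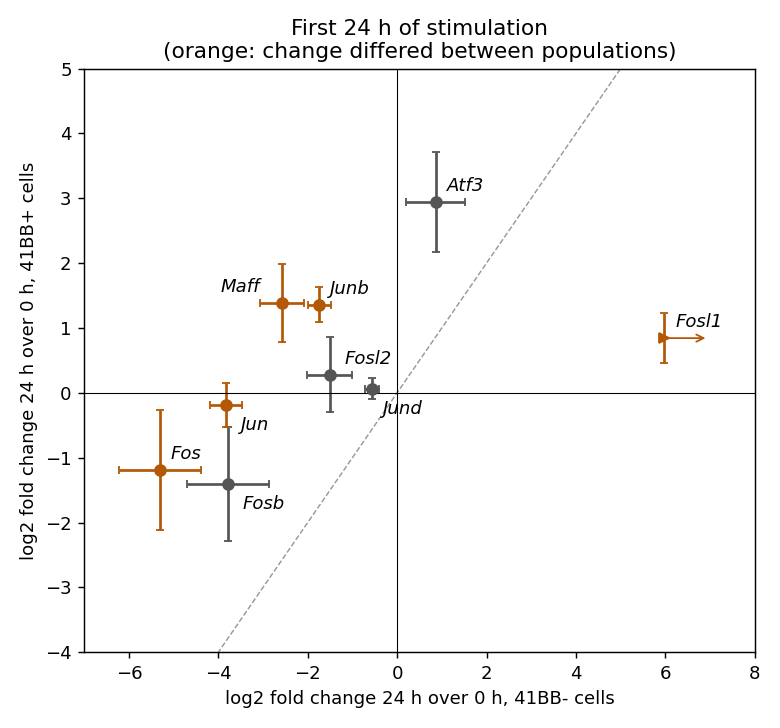
Log2 fold change from 0 h to 24 h of each of the 9 genes in 41BB- cells (x axis) and in 41BB+ cells (y axis), with bars of 1 SE, a dashed line of equal change, orange for genes whose change differed between the populations, and an arrow for the lower bound of Fosl1 in 41BB- cells. Jun, Junb, Maff and Fos lie above the line and Fosl1 below it.

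Over the first 24 h of culture with the beads the populations moved in different ways. No group was cultured without beads, so changes from 0 h cannot be split into effects of activation, of culture and of the fresh sort. In 41BB- cells Fos, Fosb, Fosl2, Jun, Junb, Jund and Maff fell and Fosl1 rose, so that 8 of the 9 genes were called, 7 lower (27.6% of all tested genes) and 1 higher (29.0%). In 41BB+ cells Junb and Atf3 rose, 2 of 9 called higher where 18.1% of all tested genes were, and none was called lower, where 16.5% were. The called share of all tested genes was 56.6% in 41BB- and 34.6% in 41BB+ cells.

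Jun in 41BB- cells went from its 0 h range of 214 to 497 CPM to 27.4, 26.5 and 28.4 CPM at 24 h, a narrow band below every 0 h library (-3.83 ± 0.36, adjusted p = 3.26e-07). In 41BB+ cells Jun was at 47.6, 59.9 and 40.9 CPM at 24 h, within the range of its 0 h values (-0.19 ± 0.34, adjusted p = 0.705). Junb fell to 96.7, 96.0 and 120.4 CPM in 41BB- cells (-1.74 ± 0.26, adjusted p = 3.11e-05) and rose to 119.9, 137.3 and 114.5 CPM in 41BB+ cells (1.36 ± 0.27, adjusted p = 0.00107). Jund in 41BB- cells was at 178, 180.4 and 182 CPM at 24 h, all below the 0 h libraries (-0.56 ± 0.16, adjusted p = 0.00495), a call lost without 41BB- 0 h replicate 2 (-0.29, adjusted p = 0.121). In 41BB+ cells it stood at 215, 224 and 158 CPM (0.06 ± 0.16, adjusted p = 0.799).

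Fos fell in 41BB- cells to 5.11, 5.91 and 1.14 CPM (-5.31 ± 0.92, adjusted p = 0.000508). In 41BB+ cells it was at 1.70, 15.1 and 1.53 CPM at 24 h, a range that overlapped that of 0 h (-1.19 ± 0.93, adjusted p = 0.36). The high value belonged to replicate 2, the library with myeloid markers at 74.2 CPM. Without that library, the Fos change in 41BB+ cells was -3.03 and still not called (adjusted p = 0.0599). With the experiment as a block over all times, Fos was called lower in 41BB+ cells (adjusted p = 0.013). That block joins libraries of different times, whose counts of Y-linked genes were not alike in experiments 1 and 3, so this call is not relied on. Fosb fell in 41BB- cells to 3.83, 3.55 and 1.99 CPM (-3.78 ± 0.91, adjusted p = 0.00266, or -2.72 without 41BB- 0 h replicate 2), and in 41BB+ cells stood at 8.22, 5.04 and 0.511 CPM (-1.41 ± 0.88, adjusted p = 0.242). Fosl2 in 41BB- cells stood at 29.4, 34.3 and 29.8 CPM at 24 h, below every 0 h library (-1.51 ± 0.51, adjusted p = 0.0207). Without any 1 of 5 libraries (41BB- 0 h replicates 1 and 2 and each 41BB- 24 h replicate) that call was lost (adjusted p = 0.0561 to 0.0848).

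Fosl1 was at 19.8, 21.3 and 17.6 CPM in 41BB- libraries at 24 h, 214 counts against 0 at 0 h, at least 63.1-fold higher (adjusted p = 1.21e-09). In 41BB+ cells it was at 13.3, 12.7 and 20.96 CPM, above each 0 h library but not called (0.84 ± 0.39, adjusted p = 0.0955). Maff fell in 41BB- cells to 4.15, 6.86 and 3.98 CPM (-2.58 ± 0.49, adjusted p = 5.74e-05), and in 41BB+ cells stood at 3.69, 3.45 and 5.11 CPM, above its 0 h range but not called (1.39 ± 0.60, adjusted p = 0.0751). Atf3 rose in 41BB+ cells to 4.82, 7.69 and 9.20 CPM (2.95 ± 0.77, adjusted p = 0.00359, or 3.71 without 41BB+ 0 h replicate 1), and in 41BB- cells was at 7.34, 4.96 and 11.4 CPM (0.86 ± 0.66, adjusted p = 0.27).

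The difference between these changes was tested as an interaction of population and time. The change was higher in 41BB+ than in 41BB- cells for Jun (3.64 ± 0.49, adjusted p = 6.9e-05), Junb (3.10 ± 0.38, adjusted p = 1.6e-05), Maff (3.97 ± 0.77, adjusted p = 0.00029) and Fos (4.12 ± 1.34, adjusted p = 0.0488), 4 of 9 where 9.03% of all tested genes were called higher. For Fosl1 it was lower (adjusted p = 2.07e-06), 1 of 9 where 14.0% of genes were called lower (23.0% in either direction). The Fos interaction was lost without any 1 of 9 of the 12 libraries compared (adjusted p = 0.0561 to 0.42). The highest of these was without 41BB+ 24 h replicate 2, the library with myeloid markers, where the value was 2.22 (adjusted p = 0.42). With the experiment as a block within each time 8 genes were called, with Fosb (2.01, adjusted p = 0.0202), Fosl2 (1.72, adjusted p = 0.000309) and Jund (0.59, adjusted p = 0.00403) added. The shares above are from the fit with no block. Jund, at 0.62 (adjusted p = 0.0515), was also called without 41BB+ 0 h replicate 2, 41BB+ 24 h replicate 3 or 41BB- 0 h replicate 1 or 3 (adjusted p = 0.0111 to 0.0368). Both populations' 0 h libraries enter this contrast, so it is not independent of the 0 h comparison.

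Of the 15 tested AP-1 target genes, 12 rose and 1 fell in 41BB+ cells over these 24 h, with a median of 1.81 (18.1% and 16.5% of all tested genes rose and fell), and 13 rose and 0 fell in 41BB- cells, with a median of 4.80, or 4.34 with genes at 0 set to their bound (29.0% and 27.6% of all tested genes). Il2ra rose in both, to 814 ± 4.43 CPM in 41BB+ (3.91, adjusted p = 6.25e-10) and 735 ± 33.3 CPM in 41BB- cells (7.70, adjusted p = 1.57e-12). Ccl4 rose to 77.7 ± 22.0 CPM in 41BB+ (2.02, adjusted p = 3.9e-08) and 166 ± 28.5 CPM in 41BB- cells (6.29, adjusted p = 1.13e-15). The one that fell in 41BB+ cells was Xcl1 (-1.60, adjusted p = 0.00126). Il2, Il3 and Lif, with means of at most 1.10 CPM at 0 h and 72 h, passed the filter on low counts only through 24 h libraries. Their rise to 24 h and fall by 72 h were therefore set by that filter and are no separate result. Of the 35 immediate early and handling-responsive genes, 10 rose and 9 fell in 41BB+ cells and 11 rose and 19 fell in 41BB- cells.

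**Figure D4:**
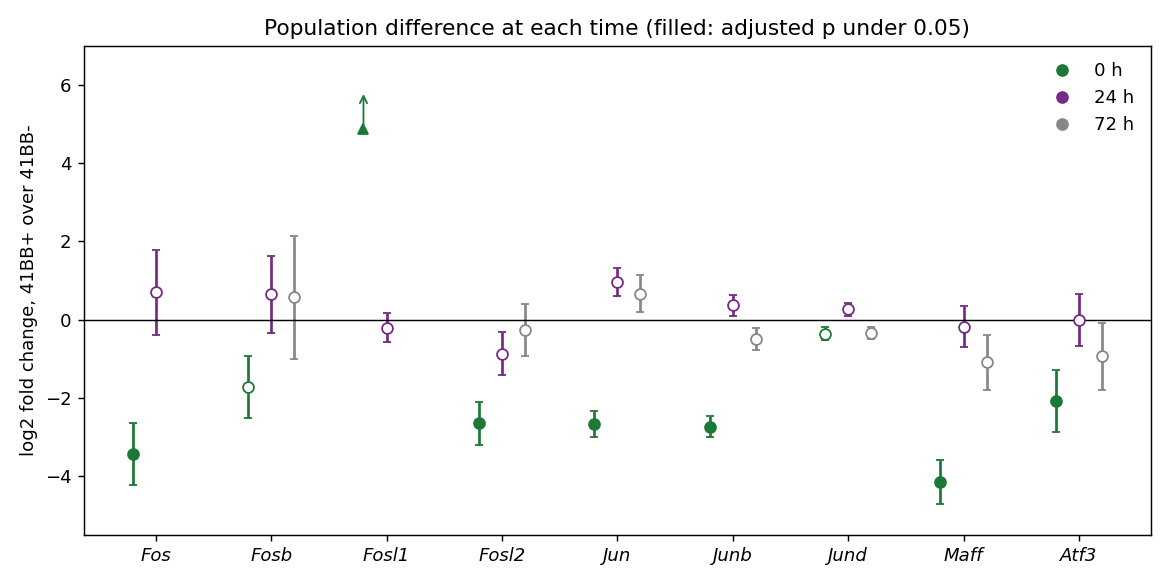
Log2 fold change of 41BB+ against 41BB- cells for each gene (x axis) at 0 h, 24 h and 72 h, with bars of 1 SE and filled markers for an adjusted p under 0.05. The triangle with an arrow is the lower bound of Fosl1 at 0 h, and Fos and Fosl1 at 72 h, with 8 counts or fewer in each group, are not drawn. At 0 h 6 genes lie below 0 and Fosl1 above it as called differences, and at 24 h and 72 h no gene shown is called.

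At 24 h no gene of the 9 was called different between the populations. The number called was 0 by edgeR's quasi-likelihood test (1 at an unadjusted p under 0.05, 0 by DESeq2), where 2.75% of all tested genes were called. Jun was higher in each 41BB+ library than in any 41BB- library (0.97 ± 0.36, adjusted p = 0.245) and Fosl2 lower (-0.87 ± 0.54, adjusted p = 0.605). With the experiment as a block within the time both were called, Jun at 0.96 (adjusted p = 8.21e-05) and Fosl2 at -0.89 (adjusted p = 0.0294). Fos was 0.70 ± 1.09 higher in 41BB+ cells (adjusted p = 0.895), and without 41BB+ replicate 2 it was 1.23 lower, at -1.23 (adjusted p = 0.888).

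At 72 h the mean level of Fos, Fosb, Fosl2, Jun, Junb, Maff and Atf3 was the lowest of the 3 times in both populations, and that of Jund the highest. In 41BB+ cells, however, Fosl2, Maff, Junb and Atf3 overlapped their 0 h libraries and were not called against 0 h (adjusted p = 0.293, 0.498, 0.948 and 0.964). Atf3 in 41BB- cells was not called against 0 h either (adjusted p = 0.176). From 24 h to 72 h, 5 genes fell in 41BB+ cells (26.3% of all tested genes fell) and 1 rose (26.2%), 6 of 9 called where 52.5% of all genes were. In 41BB- cells 4 fell (18.2%) and 1 rose (22.6%), 5 of 9 called where 40.8% of all genes were. Jund rose in both, to 296, 284 and 229.7 CPM in 41BB+ (0.51 ± 0.16, adjusted p = 0.0101) and 415, 325 and 317 CPM in 41BB- cells (1.11 ± 0.16, adjusted p = 4.45e-06). In 41BB+ cells the Jund call was lost without 24 h replicate 3 (0.37, adjusted p = 0.0713).

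Jun fell to 11.5, 16.9 and 8.08 CPM in 41BB+ (-1.96 ± 0.40, adjusted p = 0.000726) and 8.17, 8.72 and 6.60 CPM in 41BB- cells (-1.66 ± 0.44, adjusted p = 0.00714), below all 24 h libraries of each population. Junb fell to 37.9, 59.9 and 43.1 CPM in 41BB+ cells (-1.33 ± 0.28, adjusted p = 0.00066). In 41BB- cells it was at 50.05, 65.4 and 86.3 CPM (-0.48 ± 0.27, adjusted p = 0.173).

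Fosl1 fell 56.8-fold in 41BB+ cells, from 177 counts to 3 (95% counting interval 19.1 to 278, adjusted p = 1.67e-08). All 3 counts were in 72 h replicate 2, so without that library Fosl1 was at 0 at 72 h, and it was still called (adjusted p = 1.31e-08). It fell from 214 counts to 8 in 41BB- libraries (-4.60 ± 0.52, adjusted p = 7.61e-08). Fos had 1 count in the 3 41BB+ libraries of 72 h and 0 in the 3 41BB- libraries. Against 24 h this was a ratio of 66.4 in 41BB+ cells (95% counting interval 11.5 to 2661, 69 counts against 1) and at least 15.8-fold lower in 41BB- cells (45 counts against 0), and neither was called (adjusted p = 0.056 and 0.1). Of the 69 counts, 57 were in 24 h replicate 2, the library with myeloid markers. The fitted value in 41BB+ cells was -5.56, or -3.65 without that library (adjusted p = 0.264), and Fos was called without 24 h replicate 1 (0.0459) or 3 (0.0417) and by DESeq2 in both populations (0.000526 and 0.000316). Without 72 h replicate 1 no 41BB+ library of 72 h held a Fos count (adjusted p = 0.135). Against 0 h, Fos was at least 589.6-fold lower in 41BB- cells (1484 counts against 0, adjusted p = 0.000172). In 41BB+ cells the ratio was 155.5 (95% counting interval 27.5 to 6180, 154 counts against 1, adjusted p = 0.0136), a call lost without 72 h replicate 1 (adjusted p = 0.0581) or 72 h replicate 3 (0.0543). Fosl2 fell in 41BB- cells to 4.74, 3.20 and 16.7 CPM (-1.73 ± 0.57, adjusted p = 0.0266). That call was lost without 24 h replicate 2 (adjusted p = 0.0609), 72 h replicate 1 (0.0903) or 72 h replicate 2 (0.0802), and without 72 h replicate 3 the value was -2.87. In 41BB+ cells Fosl2 was at 1.92, 6.40 and 12.1 CPM and was not called (-1.13 ± 0.62, adjusted p = 0.144).

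Atf3 fell to 1.37, 0.291 and 0.808 CPM in 41BB+ (-3.01 ± 0.78, adjusted p = 0.00185) and 0, 2.62 and 2.36 CPM in 41BB- cells (-2.07 ± 0.71, adjusted p = 0.0201). The Atf3 call in 41BB- cells was lost without 24 h replicate 3 (adjusted p = 0.0845) or 72 h replicate 1 (0.0756). Maff fell to 0.274, 1.75 and 0.808 CPM in 41BB+ cells (-2.03 ± 0.66, adjusted p = 0.0105), a call lost without 72 h replicate 1 (adjusted p = 0.0623), with a value of -2.76 without 72 h replicate 2. In 41BB- cells it was at 1.32, 1.45 and 3.30 CPM (-1.13 ± 0.57, adjusted p = 0.115), and was called without 72 h replicate 3 (-1.76, adjusted p = 0.0446). The test of a difference between the changes of the populations from 24 h to 72 h called 0 of the 9 genes by edgeR (2 at an unadjusted p under 0.05, 0 by DESeq2), where 17.5% of all genes were called. With the experiment as a block within each time, Junb (-0.85, adjusted p = 0.0411) and Jund (-0.59, adjusted p = 0.00436) were called. Jund was also called without 41BB+ 24 h replicate 3 (-0.70, adjusted p = 0.0336).

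Against 0 h, 4 of 9 genes were lower (Fos, Fosb, Fosl1 and Jun) and 1 higher (Jund, 0.57 ± 0.16, adjusted p = 0.00527) in 41BB+ cells at 72 h, where 23.4% of all genes were called lower and 23.4% higher (46.7% in all). In 41BB- cells 6 were lower (Fos, Fosb, Fosl2, Jun, Junb and Maff) and 2 higher (Fosl1, with 8 counts against 0, at least 2.24-fold, and Jund, 0.56 ± 0.16, adjusted p = 0.00571), where 21.1% of all genes were lower and 26.8% higher (47.9% in all). The Jund call in 41BB- cells was lost without 0 h replicate 3 (adjusted p = 0.0535) or 72 h replicate 1 (0.0522). Fosb in 41BB+ cells (-3.46 ± 1.09, adjusted p = 0.0177) lost its call without 0 h replicate 2 (0.0571), 72 h replicate 2 (0.0736) or 72 h replicate 3 (0.0779), and was -6.00 without 72 h replicate 1. Fosb in 41BB- cells was -5.76, or -4.74 without 0 h replicate 2, and Fosl2 in 41BB- cells -3.24, or -4.32 without 72 h replicate 3. Fosl1 in 41BB+ cells was 32.6-fold lower than at 0 h (95% counting interval 10.8 to 161, 97 counts against 3). Its fitted value was -4.74, or -4.14 without 72 h replicate 1 or 3, and without 72 h replicate 2 it came from 0 counts at 72 h. Of the 15 AP-1 target genes, 14 fell in 41BB+ cells and 14 in 41BB- cells from 24 h to 72 h (26.3% and 18.2% of all tested genes). The one that rose in 41BB- cells was Gzmb, which encodes granzyme B (4.72, adjusted p = 5.92e-07). Il2, Il3 and Lif, which passed the filter on low counts only through 24 h libraries, are among the 15. Between the populations at 72 h, 0 of the 9 AP-1 genes were called by edgeR (1 at an unadjusted p under 0.05, 0 by DESeq2), where 18.9% of all genes were. Without 41BB+ replicate 2, Fosl1, then at 0 counts in 41BB+ cells, was called lower (adjusted p = 0.0454). With the experiment as a block within the time, Jun was higher (0.64, adjusted p = 0.0327) and Jund lower (-0.35, adjusted p = 0.0157) in 41BB+ cells.

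**Figure D5:**
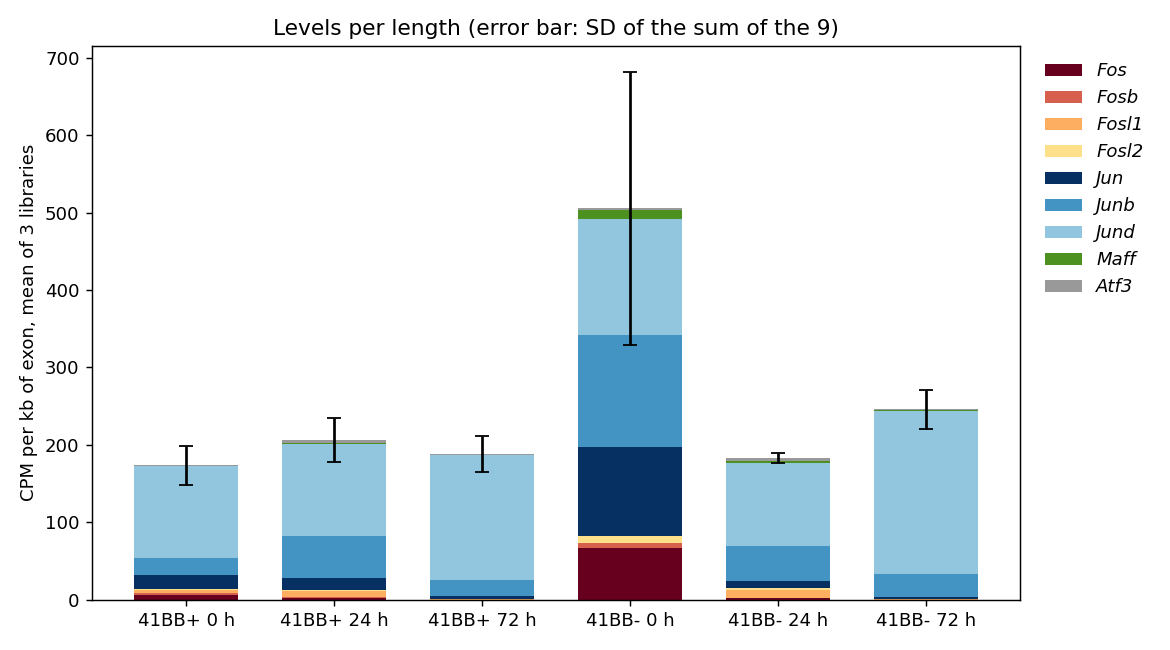
Level of the 9 genes in CPM per kilobase of exon (y axis) in each of the 6 groups, stacked by gene as means of 3 libraries, with a bar of 1 SD for the sum of the 9. The 41BB- 0 h group stands at 505.4 CPM per kb and the other 5 groups between 173.7 and 245.7 CPM per kb, and Jund makes up most of the sum in each of those 5 groups.

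Levels of different genes were compared per kilobase of exon. The 9 genes summed to 505.4 ± 176 CPM per kb (SD, n = 3) in 41BB- cells at 0 h, with libraries from 303 to 624 CPM per kb, and to 173.7 ± 25.4 CPM per kb in 41BB+ cells at 0 h. At 24 h the sums were 182.6 ± 6.28 in 41BB- and 206.4 ± 28.1 CPM per kb in 41BB+ cells, and at 72 h 245.7 ± 24.9 and 187.8 ± 23.4 CPM per kb. Jund made up 31.6% ± 8.84 of the sum in 41BB- cells at 0 h and 68.3% ± 4.54 in 41BB+ cells at 0 h. Its share was 59.2% and 57.6% at 24 h and 85.7% and 86.1% at 72 h in 41BB- and 41BB+ cells. The 4 Fos family genes together held 14.9% ± 5.69 of the sum in 41BB- and 8.03% ± 1.38 in 41BB+ cells at 0 h, and under 1% in both at 72 h (0.541% and 0.572%).

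The order of the 6 groups differed by gene. For Fos, Fosl2, Jun, Junb and Maff the 41BB- 0 h group was the highest and lay apart from the next group. For Fosb it was also the highest but overlapped the 41BB+ 0 h group, and all neighbours in the order of Fosb overlapped. For Jun the order ran on through 41BB+ 0 h and 41BB+ 24 h, which overlapped, to 41BB- 24 h and then the 72 h groups. For Jund the 41BB- 72 h group was the highest and apart from the next, 41BB+ 72 h, and all later neighbours overlapped. For Fosl1 both 24 h groups came first and overlapped, and the 41BB+ 0 h group was next and apart. For Atf3 both 24 h groups came first, and all neighbours in its order overlapped.

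Among 9369 other genes with a mean of at least 5 CPM, likeness to each of the 9 was measured as the root mean square (RMS) difference of log2 CPM over the 18 libraries, each gene centred on its own mean. Dusp1, which encodes a phosphatase of MAP kinases, was the closest to Jun (RMS difference 0.52), Maff (0.74) and Fosb (1.05). Ppp1r15a, which encodes the stress-induced phosphatase subunit GADD34, was second to Jun (0.73), Maff (0.76) and Fosb (1.06). At 0 h the mean of Dusp1 was 104.5 CPM in 41BB- cells, against 15.5 CPM in 41BB+ cells. Closest to Fosl1 were Rgs16, a regulator of G protein signaling (0.57), and Hivep3 (0.59), to Fosl2 Tnfaip3, which encodes the NF-kB inhibitor A20 (0.72), and Mvb12b (0.75). Closest to Junb were Nabp1 (0.49) and Eng (0.51), to Jund Cog6 and Wbp2 (0.19 each), to Atf3 Mfhas1 and the MAP kinase phosphatase gene Dusp5 (0.76 each), and to Fos Dtx1 (1.19) and Usp18 (1.30). Among the 9 themselves, Junb and Maff were the most alike (0.59) and Fos and Fosl1 the least (3.56).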

How the data were processed

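Sorted CD8+ T cells were profiled from total RNA with the SMARTer Stranded kit v2 (labels' protocols). The submitters' processing notes name FastQC 0.11.9, Trimmomatic 0.38, HISAT2 2.2.1, featureCounts and the build GRCm38. No source used here gives the annotation release, the strand setting or the handling of reads with several matches. The table the authors deposited holds whole-number read counts, not normalized, for 55487 genes in 18 libraries.

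GENCODE M21 supplied symbols, coordinates and exon lengths (55227 gene IDs matched). CPM is the count over the library total. In R 4.3.3, edgeR 4.0.16 kept 13150 genes (filterByExpr, minimum count 10, minimum total 15). TMM factors and robust quasi-likelihood dispersions were estimated over all 18 libraries with a mean for each group, with Benjamini-Hochberg adjustment over all genes and a threshold of 0.05. A group at 0 counts was compared through a floor of 3 counts over the group. These bounds and the 95% intervals cover counting error only. Within groups, counts differed by 4.80 to 9.84 times the sampling variance per gene, more than a repeat deposit of one library would.

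The members and lists were chosen with earlier results of these data known. All 9 members were named, and of each list up to 4 genes with the smallest adjusted p among those called. All list genes but Cyr61 were found. The values of 1 gene that this rule names are not reported here. Likeness took the closest 2 genes with log2 CPM (prior count 2).

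The labels number libraries by experiment. Deviations from group means over 10029 genes correlated at 0.0581 to 0.304 in same-numbered pairs of 1 time (medians 0.0984, 0.209 and 0.11 at 0, 24 and 72 h), against negative medians for other numbers. Y-linked counts were alike within a number and time. Across times they were alike in experiment 2 (383 to 553 counts) but not in experiment 1 (6 and 0 counts at 0 h, 213 to 325 later) or experiment 3 (845 and 945 counts at 0 h, 0 and 5 at 72 h). The numbers were therefore taken as pairs within a time, for the ratios by experiment and the block within each time. The main test fitted group means with no block, so its calls are not paired tests. The edgeR test with no block was tried on simulated counts for the 0 h comparison of the populations. The interactions, the block fits and DESeq2 were not. The tests were repeated with DESeq2 1.42.0, with RLE factors, with no filter on low counts, on only the compared groups, with the experiment as a block over all times or within each time, and each compared library left out. Leaving out experiment 3 (at 0 h or at every time) and experiment 2 at 24 h was chosen after seeing the data. Other steps used Python 3.11.15.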

Additional observations from a re-analysis of the deposited data

Results flagged for a closer look

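The change from 0 h to 24 h differed between 41BB+ and 41BB- cells for 5 of the 9 genes by the interaction test of edgeR. On the log2 scale the difference, 41BB+ minus 41BB-, was 3.64 for Jun, 3.10 for Junb, 3.97 for Maff and 4.12 for Fos. The Fos call (adjusted p = 0.0488) depended on single libraries. Without 41BB+ 24 h replicate 2 the Fos value was 2.22 and not called (adjusted p = 0.42). For Fosl1 the fitted difference was -8.20, a value that depends on the prior count because its 41BB- libraries had 0 counts at 0 h, and that is no bound.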

How the results depend on the processing

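All values below are numbers of the 9 genes called, or log2 fold changes. No share of all tested genes is given for these settings. Leaving out 1 library at a time gave 6 to 9 genes between the populations at 0 h, 0 to 0 at 24 h and 0 to 1 at 72 h, 2 to 2 from 0 h to 24 h in 41BB+ and 6 to 8 in 41BB- cells, 5 to 7 from 24 h to 72 h in 41BB+ and 3 to 6 in 41BB- cells, 3 to 5 from 0 h to 72 h in 41BB+ and 7 to 8 in 41BB- cells, and 4 to 6 and 0 to 1 for the first and second interaction. The replicate block within each time gave 2 genes between populations at 24 h, 2 at 72 h, 8 for the first interaction and 2 for the second, and lost no call. The block over all times gave 1 at 24 h, 4 from 0 h to 24 h in 41BB+ cells (with Fos called lower) and 1 for the second interaction. It lost the 0 h call of Atf3 (adjusted p = 0.0509). It joins libraries of different times, whose Y-linked counts were not alike in experiments 1 and 3. Fits of only the compared groups gave 2 at 24 h and 1 for the second interaction, and no filter gave 2 for the second interaction. Without experiment 3 at every time, 2 were called at 24 h, 1 from 0 h to 24 h in 41BB+ cells and 8 for the first interaction. Among single genes, no filter ended the calls of Fos in the first interaction (adjusted p = 0.125), of Fosl2 in 41BB- cells from 0 h to 24 h (0.0882) and from 24 h to 72 h (0.064) and of Fosb in 41BB+ cells from 0 h to 72 h (0.0603), and fitting only the compared groups ended the Fos interaction (0.0813). Without experiment 3 at every time Atf3 lost its call at 0 h (0.108), from 0 h to 24 h in 41BB+ cells (0.0689) and from 24 h to 72 h in 41BB- cells (0.0855), and without it at 0 h Jund lost its call from 0 h to 72 h in 41BB- cells (0.0612). Without experiment 2 at 24 h the Fos interaction (2.66, adjusted p = 0.385) and both Fosl2 calls in 41BB- cells that involve 24 h (0.0636 and 0.069) were lost. The cause was not tested. Of 1445 single values under an alternative, 32 changed sign, and 0 of those passed the threshold. Leaving out 1 library at a time, values between populations at 24 h ran from -1.23 to 1.16 for Fos, -0.0696 to 1.19 for Fosb, -0.38 to 0.12 for Maff and -0.26 to 0.34 for Atf3. At 72 h they ran from 0.0 to 2.43 for Fos, -1.98 to 1.20 for Fosb and -0.96 to 0.87 for Fosl2. From 0 h to 24 h in 41BB+ cells Jun ran from -0.45 to 0.21, and from 0 h to 72 h Junb from -0.11 to 0.23 and Atf3 from -0.54 to 0.71. The second interaction ran from -0.69 to 3.18 for Fos, -2.63 to 0.69 for Fosb and -0.0859 to 1.75 for Fosl2. Without experiment 2 at 24 h, Fos was -0.79 and Maff 0.23 between populations. Atf3 at 24 h was 0.0013 with RLE factors, 0.023 with the block within each time and 0.13 without experiment 3. Also without experiment 3, Fosl2 was 0.11 between populations at 72 h and -0.21 from 0 h to 24 h in 41BB+ cells, and the second interaction was 0.56 for Fosb and 0.15 for Maff. At this depth Atf3, Maff and Fosl1 rest on few counts, 243, 429 and 499 over all 18 libraries.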
